A study of Mus musculus with 6 samples.

Results

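The genes described here are 9 mouse genes of epithelial junctions and adhesion, chosen by name out of the 17110 genes that the authors' deposited comparison table lists. They are Cdh1, Epcam, the claudins Cldn3, Cldn4, Cldn6 and Cldn7, and the desmosome genes Dsp, Jup and Perp. All 9 had a row in that table, and all 9 gene identifiers also had a row in the deposited table of counts. The study compared mouse embryonic stem cells of the line TG2A that carry a red fluorescent protein, DsRed2, driven by MERVL. MERVL is an endogenous retrovirus that is active in the early cleavage embryo and in rare cultured stem cells that resemble it. All samples carry the reporter and were grown in medium with 15% fetal serum and with leukemia inhibitory factor of mouse at 25 ng/mL, and the groups differ in reporter fluorescence at sorting. The DsRed2+ group had 3 samples and the DsRed2- group had 3, which the labels call biological replicates collected on separate dates. RNA captured by its poly(A) tail was sequenced in paired reads of 150 bases.

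The count columns are named by run and barcode and could not be assigned to samples. For that reason no value per sample or depth per library is given. Errors are the standard errors (SE) of the authors' table, and values are written as log2 fold change ± SE. That table gives each gene a mean normalized count over the libraries compared and a log2 fold change between the groups. It does not say which group is the numerator. A negative value thus means a lower level in a numerator group that the table leaves unnamed, and signs below are as deposited. Pluripotency markers were abundant, as the cell type in the labels implies: 9 of 10 had a row, with mean normalized counts from 2822 to 38163. For a list of 6 two-cell-like markers there was no row to use, so the sorted state itself was not analysed here.

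Epithelial cells hold to each other through several kinds of junction. E-cadherin, the product of Cdh1, binds its like on the neighbouring cell and is tied to actin by catenins. Claudins form the strands of tight junctions, and desmosomes couple keratin filaments of adjacent cells through desmoplakin (Dsp) and plakoglobin (Jup). Mouse embryonic stem cells are epithelial in character, grow as compact colonies held by E-cadherin, and lose E-cadherin when they become mesenchymal.

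Perp and Cldn7 were about 5-fold lower in the numerator group, and Dsp and Cldn6 were also lower, while Cdh1 did not pass the test. In the authors' deposited table, 5 of the 9 genes (55.6%) had a negative fold change at an adjusted p-value under 0.05, against 15.9% of all 17110 genes. One gene, Jup, had a positive fold change at that threshold, which is 11.1% of the 9 genes against 14.6% of all genes. Past the threshold in either direction were 6 of the 9, against 30.5% of all genes. The authors also deposited a call that requires an absolute log2 fold change over 0.5, and by it 4 of the 9 (44.4%) were down and 0 were up, against 12.1% and 9.40% of all genes. The median log2 fold change of the 9 genes was -0.37 and that of all genes 0.0097. In bulk RNA fewer cells of a type and less RNA per cell cannot be told apart. Of all calls in the table, 47.8% were positive. This share was 34.7% when fold changes were centred on 76 ribosomal protein genes and 62.9% when trends with GC content and transcript length were removed. The 5 negative calls held under both, and the call of Jup was lost under the former.

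**Figure D1:**
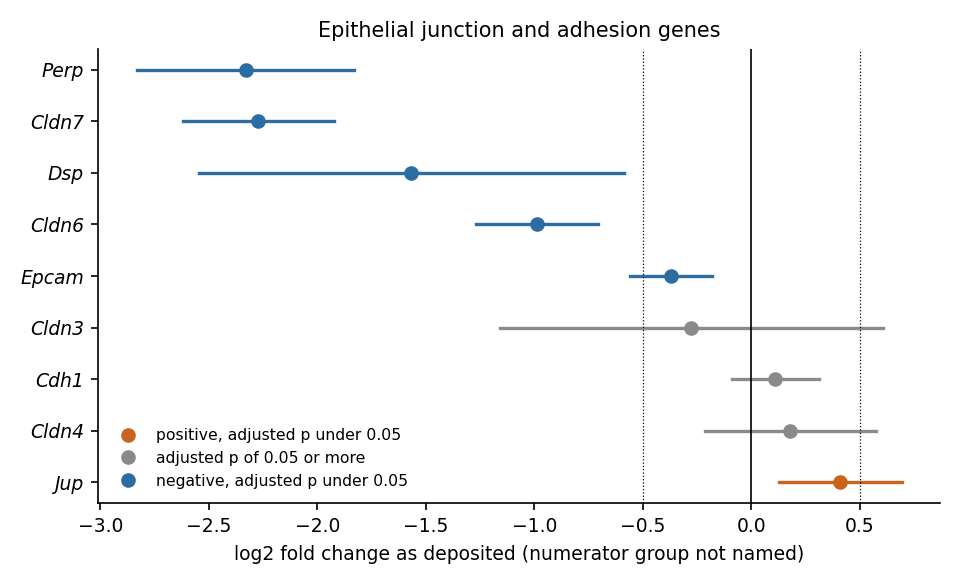
Log2 fold change of each of the 9 genes as deposited by the authors (points) with a normal 95% interval from the standard error (bars), coloured by sign and adjusted p-value. Dotted lines mark the authors' limit of 0.5 in either direction. Perp, Cldn7, Dsp and Cldn6 lie wholly below the lower line, and the interval of Cdh1 runs from -0.09 to 0.31.

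Short stretches of promoter sequence are shown first for the 4 genes that hold the E-box CAGGTG within 250 bases before the start. This hexamer is bound by the Snail and Zeb repressors of Cdh1. RefSeq start-site windows on GRCm38.p6, from 250 bases before to 50 after the start, matched 7 of the 9 genes. The entries missing are those of Cdh1 and Perp. Each line gives 30 bases, 5′ to 3′ on the strand of the gene, with the E-box in capitals, which reads CACCTG where the motif lies on the other strand.
Cldn7, chr11:69965312-69965341, plus strand: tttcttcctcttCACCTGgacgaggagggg
Cldn7, chr11:69965352-69965381, plus strand: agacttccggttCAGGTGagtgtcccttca
Epcam, chr17:87635780-87635809, plus strand: gccagtagggccCACCTGctggaggaccgg
Epcam, chr17:87635948-87635977, plus strand: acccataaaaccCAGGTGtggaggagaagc
Cldn6, chr17:23679260-23679289, plus strand: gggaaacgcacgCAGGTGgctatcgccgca
Cldn4, chr5:134946931-134946960, minus strand: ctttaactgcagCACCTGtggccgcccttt

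The E-boxes began 97 and 57 bases before the start in Cldn7, 187 and 19 in Epcam, 93 in Cldn6 and 14 in Cldn4. Within the 250 bases before the start, 4 of the 7 genes held an E-box. Of their 8 windows, 4 held at least 1, against 17.2% of 32851 RefSeq windows. At least 2 were held by Cldn7 and Epcam, against 2.06% of windows. Cldn7 has 2 windows, and its other one held none. In the whole window, Dsp and Cldn3 added a site 4 and 32 bases after the start, which made 6 of 7 genes. Counted by window this was 6 of 8, against 20.2% of all windows. The genes with a site before the start thus include Cldn7, Cldn6 and Epcam, which were negative past the threshold, and Cldn4, which was not past it.

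The 250 bases before the start are printed whole for Epcam and Cldn4, on either side of the call. Capitals again mark the E-box.
Epcam, chr17:87635729-87635978, plus strand: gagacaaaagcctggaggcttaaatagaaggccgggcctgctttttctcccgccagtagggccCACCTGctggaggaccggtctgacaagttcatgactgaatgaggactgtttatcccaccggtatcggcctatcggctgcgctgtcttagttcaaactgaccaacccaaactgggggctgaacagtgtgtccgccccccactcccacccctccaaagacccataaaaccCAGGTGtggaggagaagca
Cldn4, chr5:134946935-134947184, minus strand: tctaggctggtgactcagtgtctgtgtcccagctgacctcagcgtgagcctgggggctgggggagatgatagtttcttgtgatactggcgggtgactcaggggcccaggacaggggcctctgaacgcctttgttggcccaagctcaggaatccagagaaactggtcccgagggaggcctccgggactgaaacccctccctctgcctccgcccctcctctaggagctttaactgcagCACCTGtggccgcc

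Other motifs were read on both strands in the same windows. The GC box GGGCGG stood in all 7 genes with an entry and in 7 of their 8 windows, against 35.7% of all windows. The AP-1 motif TGANTCA was in Cldn4 alone, beginning 240 and 158 bases before the start, against 7.81% of windows with at least 1. The grainyhead motif AACCNGTT was in none of the 7, against 2.09% of windows. No sites of different motifs overlapped among the 25 found. The windows of the 7 genes had between 7 and 27 CpG dinucleotides, the most in Dsp, and the median window had 7. Their GC content ran from 52% to 73%, against 52.7% for the median window.

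Cdh1 (ENSMUSG00000000303, chromosome 8) had a mean normalized count of 16556. The authors' deposited table put it at 0.11 ± 0.10 (SE; adjusted p = 0.457). The 95% interval of this log2 fold change ran from -0.09 to 0.31, so it leaves out changes of the size seen in Cldn6, Cldn7 and Perp. Catenins, which link E-cadherin to actin, were picked out after their values were seen. On the log2 scale, the authors' deposited table gave 0.09 ± 0.08 for Ctnna1, 0.03 ± 0.08 for Ctnnb1 and 0.22 ± 0.12 for Ctnnd1 (SE), at adjusted p-values of 0.471, 0.823 and 0.185. Neither Cdh1 nor these 3 catenin genes passed the test.

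Of 24 listed adherens junction genes, 22 had a row, 6 were negative past the threshold (27.3%, against 15.9% of all genes), 1 was positive (4.55%, against 14.6%) and 15 did not pass. The median of this list was -0.14. Cdh3, the cadherin gene next to Cdh1, did not pass at 0.08 ± 0.15 (SE; adjusted p = 0.734, authors' deposited table). Cdh2, which encodes N-cadherin, a cadherin of mesenchymal and neural cells, was lower by the authors' deposited table, at -2.03 ± 0.35 (SE; adjusted p = 1.42e-07). Ptpn14, a junction-associated phosphatase, was close to it at -1.95 ± 0.17 (SE, authors' deposited table). Camsap3, which anchors microtubule minus ends at junctions, was the 1 positive call of the list, at 0.34 ± 0.10 (SE; adjusted p = 0.00544, authors' deposited table). That call was lost with ribosomal centring, at 0.25, and the positive calls of the list were 5 with GC and length trends removed.

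Epcam (ENSMUSG00000045394, chromosome 17), a surface adhesion molecule of epithelia and of pluripotent cells that binds Cldn7, had a mean normalized count of 6048. By the authors' deposited table its log2 fold change was -0.37 ± 0.10 (SE; adjusted p = 0.000852). This is a level 1.29-fold lower (95% interval 1.13 to 1.47), below the authors' limit of 0.5. Epcam and its partner Cldn7 were thus both lower, by sizes whose intervals did not overlap.

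The 4 claudins were spread from no call to a 4.83-fold lower level. Cldn7 (ENSMUSG00000018569, chromosome 11), a claudin common in simple epithelia, stood at -2.27 ± 0.18 (SE) in the authors' deposited table (adjusted p = 2.07e-35). Its p-value ranked 96 among the 17110 genes, the smallest of the 9, and the fold interval ran from 3.80 to 6.15. Cldn6 (ENSMUSG00000023906, chromosome 17), a claudin of embryonic epithelia and pluripotent cells, was at -0.99 ± 0.14 (SE) in the authors' deposited table (adjusted p = 1.18e-10). That is 1.98-fold lower, with an interval from 1.63 to 2.41 that does not meet that of Cldn7.

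Cldn4 and Cldn3, neighbouring genes on chromosome 5 whose proteins bind a clostridial toxin, did not pass the test. Cldn4 (ENSMUSG00000047501) was at 0.18 ± 0.20 (SE) in the authors' deposited table (adjusted p = 0.554). Its interval reached from -0.21 to 0.57. For Cldn3 (ENSMUSG00000070473) the authors' deposited table gave -0.28 ± 0.45 (SE; adjusted p = 0.707). Its mean normalized count was 70.4, and its interval from -1.16 to 0.61 is wide enough to hold a change of the size seen in Cldn6. Over all claudins listed, 8 of 19 had a row, and the 2 past the threshold were Cldn6 and Cldn7. They make 25% of the claudins with a row, near the 30.5% called among all genes.

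The wider tight junction list held more negative than positive calls. Of 46 listed, 34 had a row, 18 were negative past the threshold (52.9%, against 15.9% of all genes), 4 were positive (11.8%, against 14.6%) and 12 did not pass, with a median of -0.36. With ribosomal centring the positive calls were 2. Marveld2, which encodes tricellulin, the protein that seals corners between 3 cells, was at -2.49 ± 0.19 (SE) in the authors' deposited table (adjusted p = 2.59e-36). Patj, a scaffold of the Crumbs polarity complex, was similar in size at -2.27 ± 0.21 (SE; adjusted p = 2.77e-25, authors' deposited table). Jam2, a junctional adhesion molecule, went the other way at 1.89 ± 0.11 (SE; adjusted p = 5.41e-65, authors' deposited table). Ildr1, an angulin of tricellular contacts, was positive at 0.70 ± 0.16 (SE, authors' deposited table).

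The relatives of these genes were picked out after their values were seen. Marveld3 and occludin (Ocln), of the same protein family as tricellulin, were at -2.30 and -0.93 on the log2 scale of the authors' deposited table, both past the threshold. The zonula occludens scaffold Tjp1 was negative past the threshold, at -0.34 ± 0.09 (SE) in the authors' deposited table, and Tjp3 did not pass, at -0.03 ± 0.54.

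Among the desmosome genes, Perp and Dsp were lower and Jup was higher. Perp (ENSMUSG00000019851, chromosome 10), a membrane protein of desmosomes and a target of p53 and p63, had the lowest value of the 9, -2.33 ± 0.26 (SE; adjusted p = 4.22e-18), in the authors' deposited table. Its level was 5.03-fold lower, with an interval from 3.55 to 7.12, and 2.65% of all genes had a lower fold change. Dsp (ENSMUSG00000054889, chromosome 13), which links the plaque to keratin, stood at -1.57 ± 0.50 (SE; adjusted p = 0.00788) by the authors' deposited table. This is 2.96-fold lower, and the log2 interval from -2.55 to -0.59 overlapped those of both Cldn6 and Cldn7. In a test against an absolute log2 fold change of 0.5, Dsp did not pass (adjusted p-value 0.262), whereas Perp, Cldn7 and Cldn6 did.

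Dsp was measured with less precision than its abundance would give. Of the 4261 genes with a mean normalized count within 2-fold of that of Dsp, 99.5% had a smaller standard error, and their median was 0.12. For Perp this share was 97.1% and for Cldn4 94%, whereas for Cdh1 and Epcam it was 51.7% and 42.3%. Which libraries carry this spread was not tested.

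Jup (ENSMUSG00000001552, chromosome 11) encodes plakoglobin, a catenin that serves both desmosomes and adherens junctions. In the authors' deposited table it was at 0.41 ± 0.14 (SE; adjusted p = 0.018), a level 1.33-fold higher with an interval from 1.09 to 1.62. This is under the authors' limit of 0.5, and with ribosomal centring it was 0.32 and did not pass (adjusted p-value 0.0805). In the wider desmosome list, 8 of 14 genes had a row, 4 were negative past the threshold (50%, against 15.9% of all genes), 0 were positive and 4 did not pass, and the median was -0.31. By the authors' limit of 0.5, 2 of these 4 were down. Dsc2, a desmosomal cadherin, was at -3.36 ± 0.40 (SE; adjusted p = 2.86e-15) in the authors' deposited table. Ppl, the plakin periplakin, had a smaller value of -1.28 ± 0.23 (SE; adjusted p = 2.87e-07) in the authors' deposited table.

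In order of log2 fold change the 9 genes ran Perp, Cldn7, Dsp, Cldn6, Epcam, Cldn3, Cdh1, Cldn4 and Jup. The 95% intervals of neighbours in this order overlapped in 7 of 8 pairs, and the exception was the step from Cldn6 to Epcam. Per kilobase of the longest annotated transcript, the mean normalized count was highest for Cdh1 at 3737 and Epcam at 2965. Cldn6 had 1392, Jup 1145 and Cldn4 696 per kilobase, followed by Perp at 460.0, Cldn7 at 408, Dsp at 132 and Cldn3 at 55.9. The 2 genes highest on this scale, Cdh1 and Epcam, had absolute log2 fold changes under 0.5. The 4 genes called down by the authors all lay below them, mixed with Jup, Cldn4 and Cldn3, which were not called down.

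**Figure D2:**
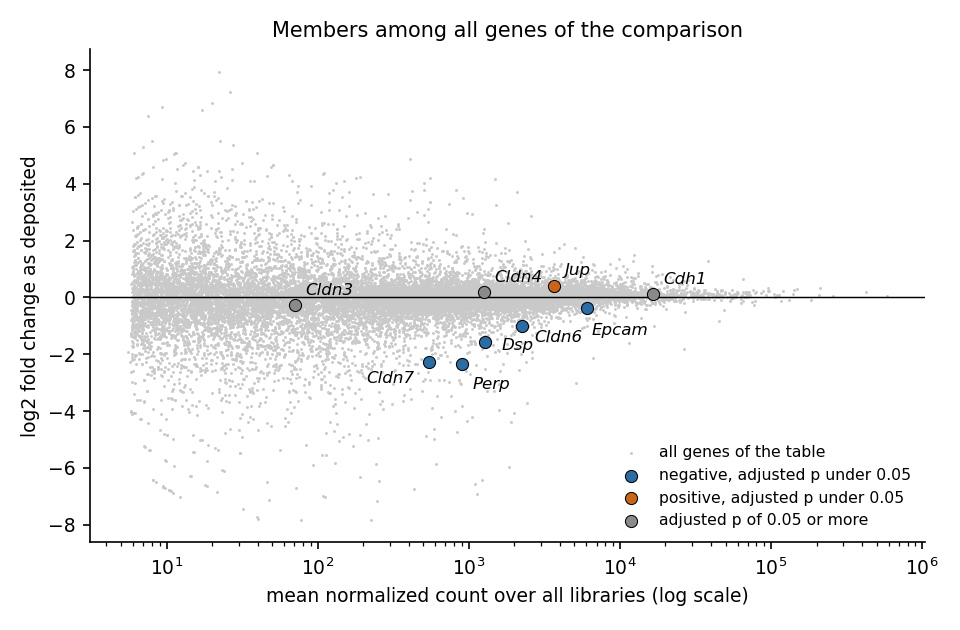
Log2 fold change as deposited against the mean normalized count over all libraries (log scale) for the 17110 genes of the authors' table (grey) and the 9 genes (labelled, coloured by sign and adjusted p-value). Perp, Cldn7 and Dsp sit between -2.33 and -1.57 at mean counts from 544 to 1270.04, and Cdh1 sits near 0 at 16556.

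Of 20 listed hemidesmosome and epithelial surface genes, all had a row, and the median was -0.43. Past the threshold, 9 were negative (45%, against 15.9% of all genes) and 5 were positive (25%, against 14.6%). The positive calls were 3 with ribosomal centring and 2 at an adjusted p-value under 0.01. Prom1, an apical membrane protein, was at -2.94 ± 0.18 (SE; adjusted p = 3.25e-54) in the authors' deposited table. The laminin receptor subunits went opposite ways, with Itga3 at -2.26 ± 0.20 and Itga6 at 0.45 ± 0.14 (SE) in the authors' deposited table. The tetraspanin Cd9 rose, at 0.74 ± 0.11 (SE) in the authors' deposited table.

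Of 15 listed regulators of the epithelial state, 12 had a row, and Klf5 and Grhl2 were positive, Esrp1 was negative and 9 did not pass. The share called, 25%, was near the 30.5% of all genes. Grhl2, a grainyhead factor that activates Cdh1 and claudin genes, was at 0.60 ± 0.21 (SE; adjusted p = 0.0178) in the authors' deposited table. With ribosomal centring this call was lost, at 0.51 and an adjusted p-value of 0.0512. Under the same centring Tfap2c and Grhl3 gained negative calls, at -0.70 and -0.39 (adjusted p-values 0.0268 and 0.0197), so that the list had 1 positive and 3 negative calls. Klf5 had the same fold change with a smaller error, 0.60 ± 0.07 (SE; adjusted p = 1.1e-15), in the authors' deposited table. Esrp1, an epithelial splicing factor, was lower at -0.81 ± 0.11 (SE; adjusted p = 9.05e-13, authors' deposited table).

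Among repressors of Cdh1, Twist1, Zeb2 and Snai3 were lower and Tcf4 was higher. Of 11 listed, 8 had a row, 3 were negative (37.5%, against 15.9% of all genes) and 1 was positive past the threshold, with a median of -0.52. With GC and length trends removed the positive calls were 3. Twist1, a mesenchymal factor, was at -2.54 ± 0.35 (SE; adjusted p = 7.73e-12) in the authors' deposited table. Zeb2 and Snai3 stood at -0.96 ± 0.28 and -0.94 ± 0.26, and Tcf4 at 0.41 ± 0.12 (SE), in the authors' deposited table. The mean normalized counts of Twist1, Zeb2 and Snai3 were low, at 51.9, 82.7 and 78.4, against 1130 for Tcf4. With GC and length trends removed Zeb2 did not pass, at -0.65 (adjusted p = 0.0535). Mean normalized counts were 27.8 for Snai1 and 8.64 for Snai2, the 2 Snail genes best known to act on Cdh1, and neither passed, at -0.72 and -0.32 in the authors' deposited table (adjusted p-values 0.237 and 0.800). Zeb1 did not pass at 0.37 ± 0.21 (SE, authors' deposited table), but did with GC and length trends removed, at 0.65 (adjusted p = 0.00786). Tcf3 did not pass at 0.09 ± 0.08 (SE; adjusted p = 0.397, authors' deposited table). Zeb1 had a mean normalized count of 363 and Tcf3 one of 3751.

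**Figure D3:**
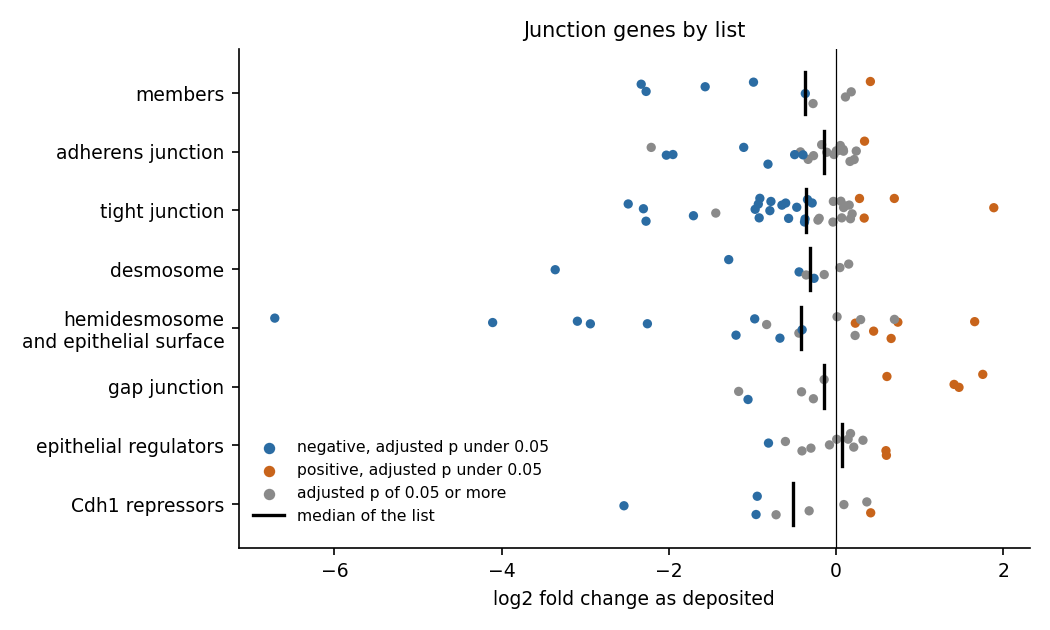
Log2 fold changes as deposited for the 9 genes and for 7 lists of related genes (1 point per gene with a row, coloured by sign and adjusted p-value, spread vertically for legibility only), with the median of each list as a black bar. Medians run from -0.52 for the Cdh1 repressors to 0.075 for the epithelial regulators, and each of the 7 lists holds genes on both sides of 0.

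Most trophectoderm markers were lower along with the lower junction genes above. Trophectoderm, the first epithelium of the embryo, expresses simple keratins together with desmosome and claudin genes. Of 9 trophectoderm markers 8 had a row, all 8 were negative in sign, 6 passed the threshold (75%, against 15.9% of all genes), and their median log2 fold change was -3.09. The keratins Krt8, Krt18 and Krt19, which attach to desmosomes, were at -4.39, -3.96 and -4.73 in the authors' deposited table, at mean normalized counts from 834 to 1903. Cdx2, a defining factor of that lineage, stood at -5.82 with a mean normalized count of 130 in the authors' deposited table. Values this low were not confined to the trophectoderm list. T, Fgf5 and Wnt3, which are not on it and were picked out after their values were seen, were at least as low as Cdx2. Whether the low values of these markers are particular to trophectoderm was not tested. Tfap2c, with a mean count of 1777, did not pass at -0.61 ± 0.26 (SE; adjusted p = 0.0635, authors' deposited table). Nor did Gata3, with a mean count of 13.7, at -1.66 ± 0.89 (SE; adjusted p = 0.157, authors' deposited table). Of 9 pluripotency markers 6 were positive past the threshold (66.7%, against 14.6% of all genes) and 0 negative, with a median of 0.62. Of 7 fibroblast markers 3 were negative (42.9%, against 15.9% of all genes) and 0 positive past the threshold. Among these 3, Col1a1 and Col1a2 had mean normalized counts of 20.9 and 10.1. Vim and Thy1 did not pass at 0.20 and 0.34 in the authors' deposited table. Of 5 primitive endoderm markers 1 was negative past the threshold (20%), near the share of all genes. The part of other cell types in the lower junction genes was not tested.

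The genes on either side of each of the 9 were compared with it, because position played no part in their choice. The 2 nearest genes with a row on each side were taken from the RefSeq gene order. Around Cldn7, all 4 did not pass, and their values lay between -0.25 and 0.22 in the authors' deposited table. The same held around Dsp, where the 4 neighbours lay between -0.77 and 0.10. Beside Cldn6, the neighbouring claudin Cldn9 did not pass at 0.09 ± 0.56, and on the other side Tnfrsf12a was negative at -0.97 ± 0.22 (SE) in the authors' deposited table. Epcam had 1 negative and 1 positive call among its 4 neighbours, and closed a run of 5 genes of negative sign with 4 called. Cdh1, Cldn3 and Cldn4 each had 1 positive call among their 4. Jup had 2 positive calls on one side, Hap1 at 0.43 ± 0.09 and Gm10039 at 0.81 ± 0.24, and 1 negative call on the other, Fkbp10 at -0.45 ± 0.17 (SE, authors' deposited table). Jup closed a run of 6 genes of positive sign with 5 called. How often runs such as those at Epcam and Jup occur over all genes was not counted.

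Around Perp, all 4 neighbours were negative past the threshold. Arfgef3 and Hebp2 on one side were at -0.95 ± 0.21 and -1.74 ± 0.26 (SE) in the authors' deposited table. Tnfaip3, an inhibitor of NF-kappaB signalling, and Ifngr1, a subunit of the interferon gamma receptor, stood on the other side at -2.07 ± 0.33 and -1.29 ± 0.20 (SE) in the authors' deposited table. Among 2622 genes with a negative call and 4 ordered neighbours, all 4 neighbours were negative past the threshold for 26 (0.992%), and all 4 were negative in sign for 414 (15.8%). The window was widened to 10 genes on each side after this was seen. Perp lay in an unbroken run of 7 genes with a negative call, from Nhsl1 to Slc35d3, within 13 consecutive genes of negative sign from Heca to Map3k5. Of the 20 flanking genes, 16 were negative in sign, against 8387 of all 17110 genes. Past the threshold, 9 were negative and 3 were positive, against 15.9% and 14.6% of all genes. Txlnb and Gm47761 beyond one end were at 1.54 and 1.00, and Map7 beyond the other was at 0.32 in the authors' deposited table, all 3 past the threshold. How often runs of such length occur over all genes was not counted, and a cause of this run was not tested.

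**Figure D4:**
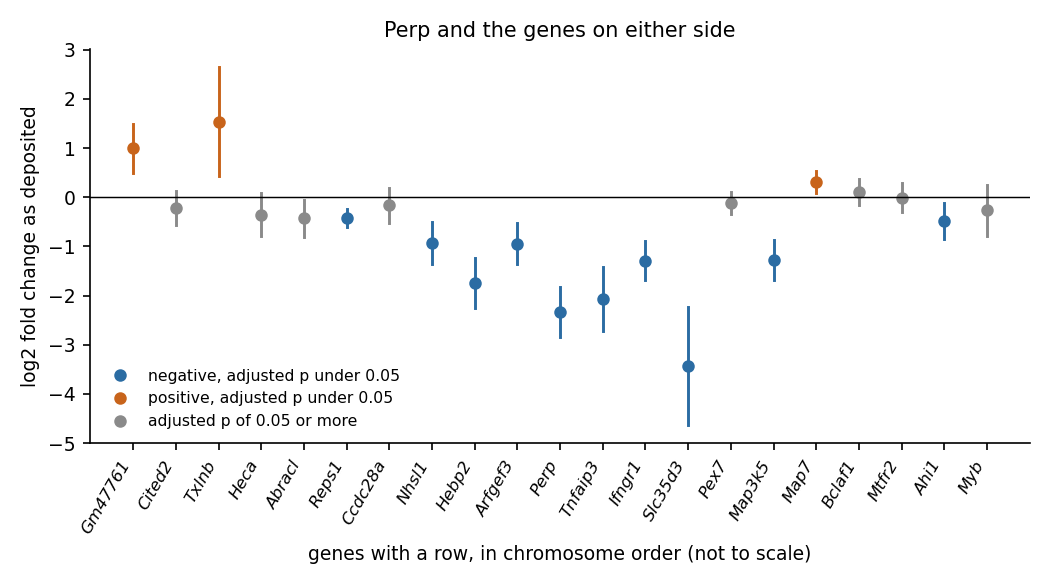
Log2 fold change as deposited (points, with 95% intervals as bars) for Perp and the 10 genes with a row on each side, in chromosome order and not to scale, coloured by sign and adjusted p-value. The 7 genes from Nhsl1 to Slc35d3 are all negative past the threshold, between -0.92 and -3.43.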

How the data were processed

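Per the submitters' processing notes, the tools were FastQC 0.12.1, Trimmomatic 0.39, STAR 2.7.11b, RSEM 1.3.3 and DESeq2 1.45.3 with the GRCm39 build. The role of each, the annotation, the model formula and the reference group are not given in the sources used here. The authors deposited 1 mean normalized count per gene, a signal averaged over all libraries. Fold changes and their errors were deposited as log2 values. The deposited statistic is a score that equals their ratio to within 5.77e-07. The p-value and adjusted p-value are the authors' own, across all 17110 genes. A call deposited by the authors as up or down matched an adjusted p-value under 0.05 with an absolute log2 fold change over 0.5, with 0 exceptions.

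The labels list 3 samples in each of 2 groups, which are taken to be the groups compared. The 6 count columns match no sample label and were not used, so the planned count tests were not run and the authors' table was the main source. Python 3.11.15, pandas 2.3.3 and scipy 1.17.1 gave normal 95% intervals, counts, and p-values recomputed from fold changes and standard errors with Benjamini-Hochberg adjustment. R 4.3.3 loess (span 0.3) removed trends with GC content and transcript length, taken from GENCODE M21 for 16795 genes. A version that also returned the median gene to its deposited value was added after the planned removal had been seen to shift it. Gene order came from RefSeq GRCm38.p6 for the 15470 genes matched by symbol. The recomputed p-values with their adjustment, and the trend removal for a trend with GC content, were tested on simulated data. The gene order and the promoter motifs had no such test. Protein comparisons were planned but not made. Each of the 9 genes is named, with, from each list, the 2 genes of smallest p-value in each direction among those past the threshold, and any regulator or repressor of Cdh1 with a row. Some genes that the rule names are not reported here. Other genes are named as neighbours, as markers or as chosen after their values were seen. The 9 genes and all lists were chosen with earlier results of these data known. Values of close paralogs, and of overlapping or antisense genes, are uncertain, since how shared reads were divided and whether strand was used are not given in the sources used here.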

Additional observations from a re-analysis of the deposited data

How the results depend on the processing

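No paired analysis was possible because neither deposited table could be split by replicate here. Fits without a replicate, other normalizations and other tools were not run for that reason, so whether 1 library decides a value is not answered here. Among the 9 genes, the 5 negative calls and the call of Jup stood with a minimum mean count of 50, centring on the median gene, and removal of GC and length trends. As planned, that removal moved the median of all genes from 0.010 to 0.079 and the positive share of calls from 47.8% to 62.9%. After this was seen, a recentred version was added, which left the median at 0.009 and the share at 53.3%. Klf4 (0.41) gained a call and Zeb2 lost its call in the planned version but not in the recentred one, whereas Zeb1 and Tcf3 gained a call in both (0.58 and 0.21 when recentred). Positive adherens junction calls were 5 as planned and 2 recentred, against 1. Calls among the 9 genes fell from 6 to 3, and negative calls from 5 to 3, at an absolute log2 fold change over 1 (Perp, Cldn7 and Dsp) and in a test against 0.5 (Perp, Cldn7 and Cldn6). The positive call, Jup, was lost, leaving 0, at an adjusted p-value of 0.01, at limits of 0.5 and 1, in the test against 0.5 and with ribosomal centring. The median of the 9 genes lay between -0.46 and -0.37. Calls in the related lists fell from 59 to 22 at a limit of 1 and to 21 in the test against 0.5. Grhl1, at 0.0070 without a call, turned to -0.0027 and -0.086 with median and ribosomal centring. Of single-gene values, 71 of 81 for the 9 genes and 285 of 322 for the related genes kept direction and call. Part of this was fixed in advance. The stricter adjusted p-value, the limits and the test against 0.5 use the deposited fold change, so no direction could turn and no call could be gained. The minimum mean count of 50 left out none of the 9 genes, whose lowest was 70.4.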

Other observations

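Connexins, which build the gap junctions that join neighbouring cells, went both ways. Of 13 listed genes, the connexins and the pannexin Panx1, 9 had a row. Past the threshold, 4 were positive (44.4%, against 14.6% of all genes) and 1 was negative (11.1%, against 15.9%), and 4 did not pass. The beta connexin Gjb5 was at 1.47 ± 0.23 (log2 fold change ± SE) in the authors' deposited table, at an adjusted p-value of 4.2e-09. Gja4, chosen after its value was seen, stood at 1.75 ± 0.66 (SE, authors' deposited table), with a mean normalized count of 14.3. Gja1, the connexin with the highest mean normalized count per kilobase at 1494, was negative at -1.05 ± 0.17 (SE; adjusted p = 9.27e-09, authors' deposited table). With a minimum mean count of 50 the positive calls were 2. With ribosomal centring the negative calls were 3.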
